A study of Mus musculus with 12 samples.

Results

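The genes that build the cornified envelope were followed across 12 RNA-seq libraries of mouse rectum. They were taken by name: every row whose symbol begins with Lce and a number or with Sprr, plus Lor, Ivl, Flg, Flg2, Hrnr, Rptn, Tchh, Tchhl1, Crct1, Crnn and Lelp1. The rule found 50 lines of the deposited table. These lines held 47 genes of 27785, because Flg stood on 4 lines. Lelp1 was not analysed here. All 47 genes lie on chromosome 3 between 92080271 and 93471980 of mm10 (GRCm38, GENCODE M21), a stretch of 1.39 Mb called the epidermal differentiation complex. Levels are in FPKM, which divides fragments by transcript length and by library size, so genes can be set beside one another.

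The cornified envelope is the tough protein shell that keratinocytes assemble beneath the plasma membrane in their last stage of life. Its precursors are made in the upper layers of stratified squamous epithelia and are cross-linked by transglutaminases. Loricrin and the late cornified envelope (Lce) proteins are typical of dry, keratinised skin, small proline-rich (Sprr) proteins are made in skin and in moist squamous linings, and filaggrin-type proteins carry an S100 calcium-binding end fused to long repeats that bundle keratin. The rectum is lined by columnar epithelium and meets the squamous lining of the anal canal at its lower end.

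The study held 4 groups. The Lgr5-Apc group (n = 4) carried Lgr5creER and floxed Apc, the Cdx2-Apc group (n = 3) CDX2creER and floxed Apc, and the Lgr5-Cdx2-Apc group (n = 2) both Cre lines and floxed Apc. CreER is a recombinase activated by tamoxifen. Lgr5 drives it in intestinal stem cells and Cdx2 in hindgut epithelium. The control libraries (n = 3) are called WT, while their genotype entry names CDX2creER and APC flox before a bracketed WT. The labels do not settle which of these alleles the controls had. A protocol of 25 mg/kg tamoxifen for 5 days stands on all 12 samples, while the treatment characteristic is given only for the 9 Apc libraries. Age, strain and sex are not given, and nothing says whether libraries came from separate animals, so p-values measure only the spread between these samples. Apc, the floxed gene, was 13.5 to 18.8 FPKM in all libraries. A gene's FPKM level does not report on single exons, so deletion was not checked. Total FPKM ran from 451297 to 728462 per library, and the depth in reads is unknown. Columnar epithelium markers (9 of 9 measured) were present in every library. Their summed level was 3476 to 5549 FPKM in control, 1157 to 4918 in Lgr5-Apc, 4776 to 5798 in Cdx2-Apc and 183 to 1017 in Lgr5-Cdx2-Apc.

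The promoters of 6 members are shown because these genes stand for the patterns described below: Lor and Lce1a1 for genes high in both Lgr5-Cdx2-Apc libraries, Lce3f and Sprr3 for genes high in a pair of Lgr5-Apc libraries, Sprr2a3 for the genes present in every library, and Sprr2d for the rest of the Sprr2 family. Each is 300 bases, from 250 before to 50 after the RefSeq start (GRCm38.p6), 5′ to 3′ on the gene's strand, at chr3:92083093-92083392 (Lor, minus strand), chr3:92648258-92648557 (Lce1a1, minus), chr3:92991967-92992266 (Lce3f, plus), chr3:92458671-92458970 (Sprr3, minus), chr3:92285054-92285353 (Sprr2a3, plus) and chr3:92338890-92339189 (Sprr2d, plus). Capitals mark matches on either strand to TATAAA (the TATA box), TGANTCA (the AP-1 site), ATGCAAAT (the octamer bound by POU factors), CACACCC (a KLF site) or TTTATTG (a CDX site).
Lor: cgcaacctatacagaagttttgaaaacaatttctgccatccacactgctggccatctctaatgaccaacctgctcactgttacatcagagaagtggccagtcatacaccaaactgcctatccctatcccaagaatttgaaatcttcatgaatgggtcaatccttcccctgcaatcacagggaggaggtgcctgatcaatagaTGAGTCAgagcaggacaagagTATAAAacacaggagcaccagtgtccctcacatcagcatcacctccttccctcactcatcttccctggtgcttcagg
Lce1a1: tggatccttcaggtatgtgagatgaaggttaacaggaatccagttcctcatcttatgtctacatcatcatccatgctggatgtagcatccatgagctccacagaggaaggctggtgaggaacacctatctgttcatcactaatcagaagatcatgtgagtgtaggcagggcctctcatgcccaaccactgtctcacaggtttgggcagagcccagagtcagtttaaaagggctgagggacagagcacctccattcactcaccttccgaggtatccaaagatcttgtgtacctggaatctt
Lce3f: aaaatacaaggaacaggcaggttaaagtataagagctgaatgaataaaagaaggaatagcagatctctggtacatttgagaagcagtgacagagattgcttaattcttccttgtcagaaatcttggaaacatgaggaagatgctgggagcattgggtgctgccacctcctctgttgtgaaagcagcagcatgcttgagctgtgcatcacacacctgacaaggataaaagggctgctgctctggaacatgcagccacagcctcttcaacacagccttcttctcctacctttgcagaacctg
Sprr3: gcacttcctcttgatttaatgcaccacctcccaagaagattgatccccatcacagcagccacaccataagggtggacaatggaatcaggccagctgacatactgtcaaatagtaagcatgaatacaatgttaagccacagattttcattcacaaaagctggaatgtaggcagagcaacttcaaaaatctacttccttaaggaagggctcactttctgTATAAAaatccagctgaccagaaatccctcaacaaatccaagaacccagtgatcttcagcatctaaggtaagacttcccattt
Sprr2a3: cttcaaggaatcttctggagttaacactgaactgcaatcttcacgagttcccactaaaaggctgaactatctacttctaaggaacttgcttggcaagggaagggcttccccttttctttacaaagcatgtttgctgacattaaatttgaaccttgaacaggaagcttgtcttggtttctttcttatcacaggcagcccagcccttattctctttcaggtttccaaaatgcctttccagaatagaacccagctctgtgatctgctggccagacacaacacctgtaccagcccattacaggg
Sprr2d: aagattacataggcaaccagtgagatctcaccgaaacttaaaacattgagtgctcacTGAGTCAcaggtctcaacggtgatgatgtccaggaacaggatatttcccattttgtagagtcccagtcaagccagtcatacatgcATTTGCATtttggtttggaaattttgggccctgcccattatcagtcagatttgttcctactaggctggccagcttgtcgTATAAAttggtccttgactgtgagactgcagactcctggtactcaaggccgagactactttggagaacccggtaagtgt

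A window was found for 43 of the 47 genes, all but Crct1, Lce1f, Sprr2g and Sprr2j-ps. TATAAA stood in 20 of these 43 windows (46.5%) and in 13.6% of all 32851 promoter windows of the table. TGANTCA stood in 16 of 43 (37.2%, against 7.81% of all) and ATGCAAAT in 7 of 43 (16.3%, against 1.74% of all). CACACCC was found in 2 of 43 (4.65%, against 7.95%) and TTTATTG in 3 of 43 (6.98%, against 4.60%). The Sprr2 family was divided. All 7 windows of Sprr2 genes other than Sprr2a1, Sprr2a2 and Sprr2a3 held the TATA box, the AP-1 site and the octamer, and the TATA box began at position -29 from the start in each. These 7 were the only windows with the octamer. They were 66.3% to 89.3% identical to one another, so they are not 7 separate cases in the shares above. The 3 Sprr2a windows held none of the 5 motifs. The Sprr2a windows were 90.7% to 100% identical to one another and 20.3% to 59.7% identical to those of the other Sprr2 genes. These letters were absent from these windows only: GENCODE places the start of Sprr2a3 at 92285417, beyond the end of the RefSeq window. Of the 13 Lce1 windows 2 held TATAAA and none held TGANTCA, and of the 6 Lce3 windows 1 held TATAAA.

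Sequence likeness also bears on how reads are shared out between genes. Across the transcripts of all genes, only 3.72%, 3.53% and 38.9% of the 50-base words of Sprr2a1, Sprr2a2 and Sprr2a3 were found in no other gene. The split of the Sprr2a signal between these 3 genes is therefore uncertain, and Sprr2a2 also overlaps Sprr2a1 in the annotation. Among the Lce1 genes the unique share was 72.9% (Lce1i) to 100% (Lce1m), and among the Lce3 genes 50.7% (Lce3d) to 87.9% (Lce3b). Lor, Sprr1a, Sprr1b, Sprr3, Crct1, Rptn and Tchh shared no 50-base word with another gene.

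**Figure D1:**
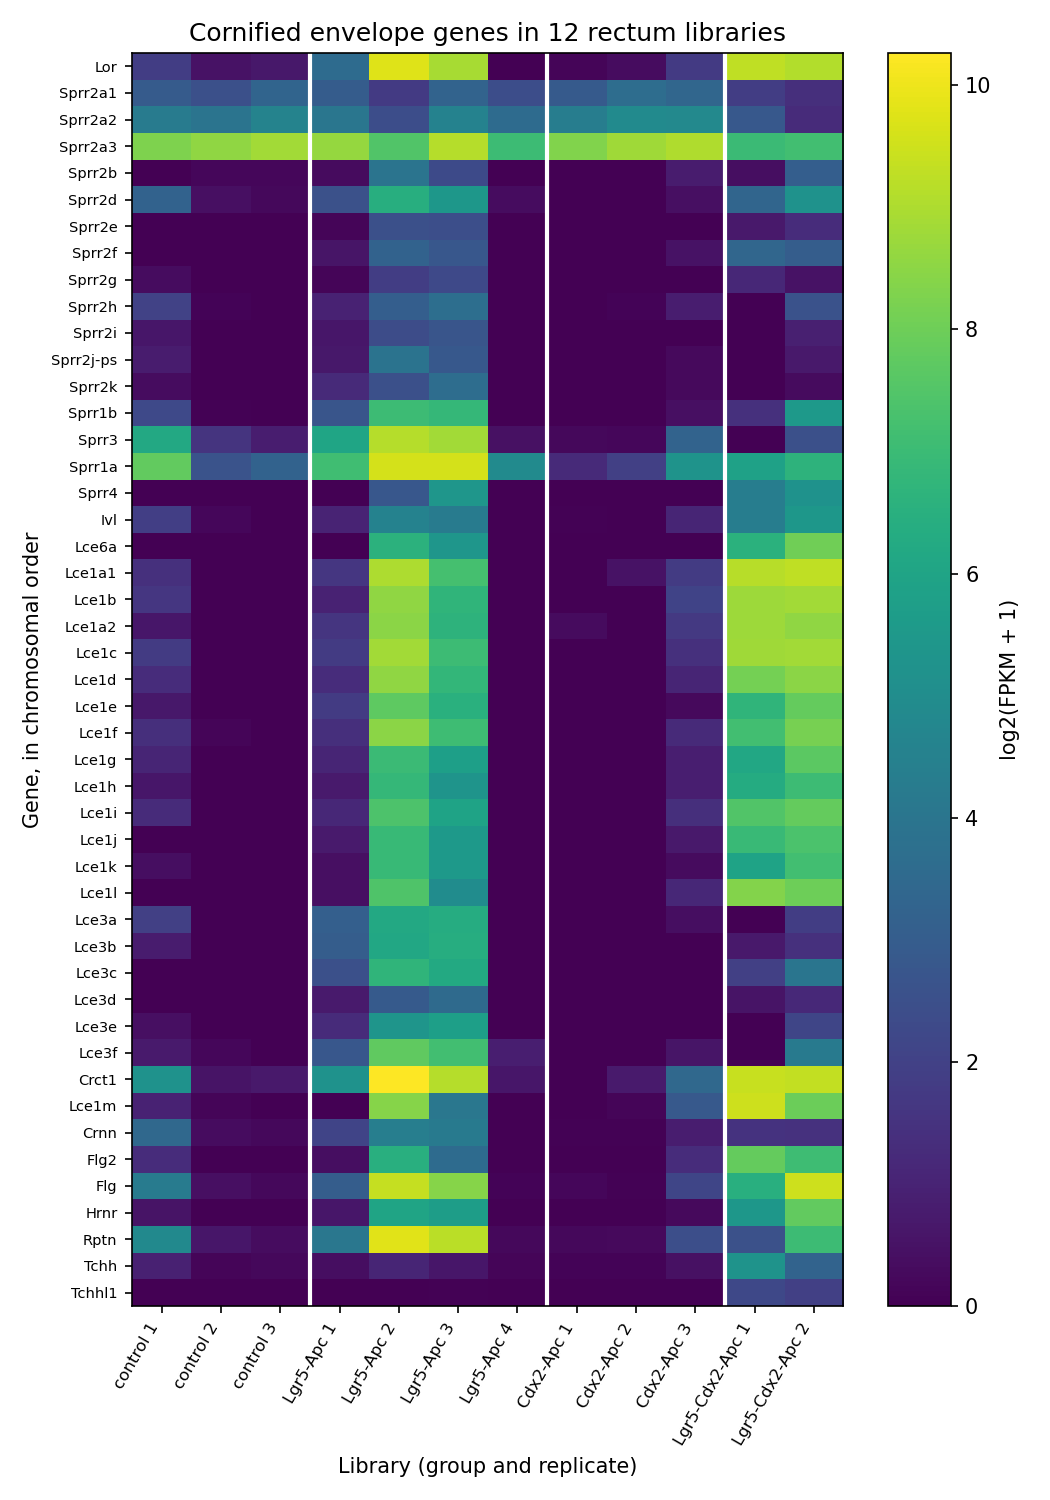
Heat map of the 47 genes (rows, in chromosomal order) in the 12 libraries (columns, grouped by genotype), coloured by log2(FPKM + 1). The Lce1 block is bright in Lgr5-Apc 2 and 3 and in both Lgr5-Cdx2-Apc libraries, the Lce3 block in Lgr5-Apc 2 and 3, and Sprr2a3 is well above 0 in every library.

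The envelope genes were abundant in 4 libraries and scarce in the other 8. Without the 3 Sprr2a genes, the remaining 44 summed to 9847 and 5127 FPKM in Lgr5-Apc 2 and 3 and to 5853 and 7145 in Lgr5-Cdx2-Apc 1 and 2. In the other Lgr5-Apc libraries the sum was 338 in replicate 1 and 31.6 in replicate 4. In control it was 433 in replicate 1, 10.3 in replicate 2 and 11.6 in replicate 3, and in Cdx2-Apc 2.31, 4.91 and 97.7. The Lgr5-Apc group thus ran from 31.6 to 9847 FPKM, and the Lgr5-Cdx2-Apc group was the only one whose libraries were all high. In whole tissue, fewer cells of a type and less RNA per cell cannot be told apart.

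Other markers are given beside these sums, and their part in the results was not tested. The epidermal suprabasal keratins Krt1, Krt2, Krt10, Krt77 and Krt80 (5 of 5 measured) summed to 10423 and 6504 FPKM in Lgr5-Apc 2 and 3, to 5602 and 14339 in Lgr5-Cdx2-Apc, and to 3.57 to 669 in the other 8 libraries. The skeletal muscle list (9 of 9 measured) summed to 446 FPKM in Lgr5-Apc 2 and to 434 and 500 in Lgr5-Cdx2-Apc, but to 15.0 in Lgr5-Apc 3 and at most 47.5 elsewhere. The smooth muscle list (9 of 9 measured) was lowest in Lgr5-Cdx2-Apc, at 101 and 69.6 FPKM, against 741 to 4617 in the other libraries.

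**Figure D2:**
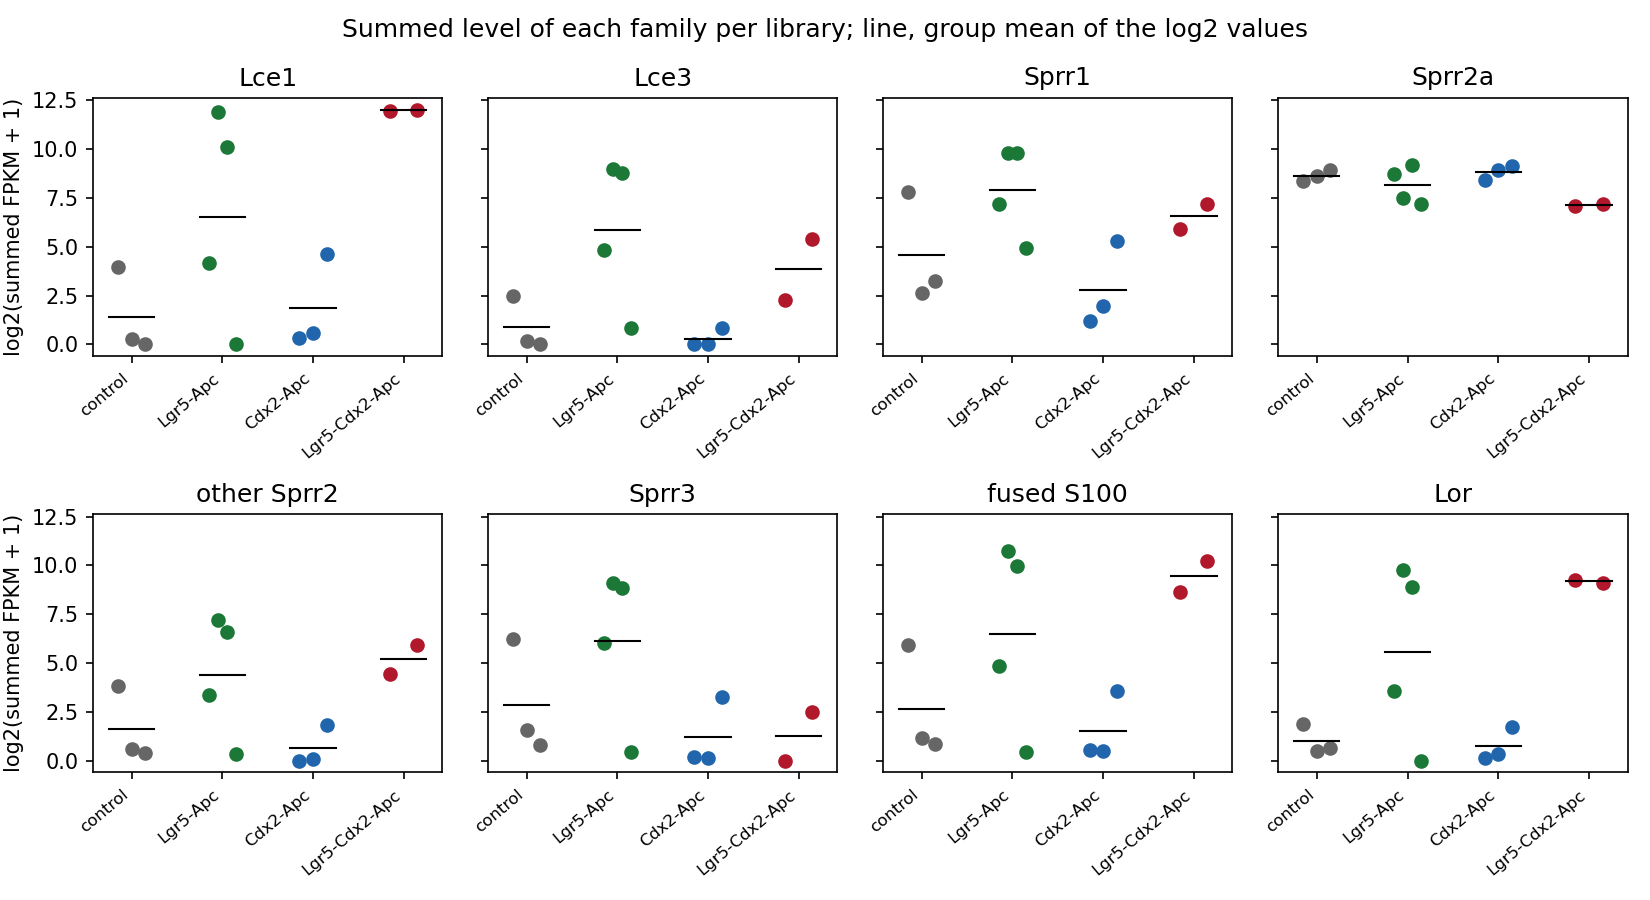
Summed level of 8 families or genes in each library, as log2(summed FPKM + 1), with the group on the x axis, 1 point per library and a line at the group mean of the log2 values. For Lce1 and Lor both Lgr5-Cdx2-Apc points lie above all control points, whereas for Sprr3 they lie within the control range or below it, and the Sprr2a sum lies between 134 and 593 FPKM in all libraries.

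Against control, rectum with both drivers had 23 of the 47 envelope genes higher and 1 lower. Over all 17360 genes tested, 10.5% were called higher and 8.55% lower (limma, Benjamini-Hochberg adjusted p below 0.05). At an unadjusted p under 0.05 were 28 of the 47, and 36.9% of all genes. The median log2 difference of the 47 genes was 3.21, and that of all genes tested was 0.07. Differences are on the log2(FPKM + 1) scale throughout. All 47 genes had passed the filter of at least 1 FPKM in at least 2 libraries, some only through the libraries in which they were high. Tchh and Tchhl1 would not have passed without the Lgr5-Cdx2-Apc libraries. In 31 of the 47, both Lgr5-Cdx2-Apc libraries lay above all 3 controls, as did 32.1% of all genes tested, and in 3 both lay below (25.3% of all). The calls rest on few libraries: they fell from 24 to 3 without control replicate 2, to 2 without control replicate 3, and to 2 and 1 without Lgr5-Cdx2-Apc replicate 1 and 2.

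Lor encodes loricrin, the main protein of the envelope in skin. It was 616 and 546 FPKM in Lgr5-Cdx2-Apc and 2.68, 0.431 and 0.594 in control. Both Lgr5-Cdx2-Apc libraries were far above all controls, and the log2 difference was 8.16 ± 2.31 (SE; limma adjusted p = 0.0362). Ivl encodes involucrin, an early scaffold of the envelope. It was 19.3 and 41.9 FPKM against 2.79, 0.122 and 0 in control, and it rose by 4.19 ± 1.26 (SE; limma adjusted p = 0.0429). Crct1, a small cysteine-rich gene inside the Lce cluster, was the most abundant member over the 12 libraries apart from Sprr2a3. It was 675 and 647 FPKM against 36.2, 0.435 and 0.634, without overlap, and its difference of 7.22 ± 2.50 did not pass (SE; limma adjusted p = 0.0663).

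All 14 Lce1 genes were called higher in Lgr5-Cdx2-Apc than in control, with log2 differences from 6.41 (Lce1k) to 8.74 (Lce1a1) and a median of 7.56. The Lce1 proteins are cross-linked into the envelope late, in the outermost living layers of skin. Lce1a1 was 565 and 626 FPKM in Lgr5-Cdx2-Apc, and 1.68 in control replicate 1 and listed at 0 in control replicates 2 and 3. Its difference was 8.74 ± 2.18 (SE; limma adjusted p = 0.0240). Lce1c at 440 and 460 FPKM, Lce1b at 428 and 460, Lce1a2 at 427 and 377, and Lce1d at 281 and 352 followed, and these 4 were at most 2.48 FPKM in any control. Lce1l, at 324 and 256 FPKM, and Lce1j, at 124 and 164, were listed at 0 in all 3 controls. Lce1m was uneven between the Lgr5-Cdx2-Apc libraries, at 722 and 248 FPKM, against at most 0.972 in control. Lce6a, a single Lce gene beside the Lce1 cluster, was 92.9 and 263 FPKM and listed at 0 in all controls, with a difference of 7.30 ± 1.74 (SE; limma adjusted p = 0.0209).

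None of the 6 Lce3 genes passed in the same comparison. The Lce3 genes lie between Lce1l and Lce1m and are known from inflamed or wounded skin. Lce3f was 0 and 17.4 FPKM in Lgr5-Cdx2-Apc against 0.670, 0.122 and 0 in control, so the groups overlapped (log2 difference 1.80 ± 1.87, SE). Lce3c was 2.80 and 14.9 FPKM and Lce3a 0 and 2.64. Their differences were 2.96 ± 1.63 and 0.28 ± 1.60 (SE). Lce3b, Lce3d and Lce3e reached at most 3.38 FPKM in these libraries.

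**Figure D3:**
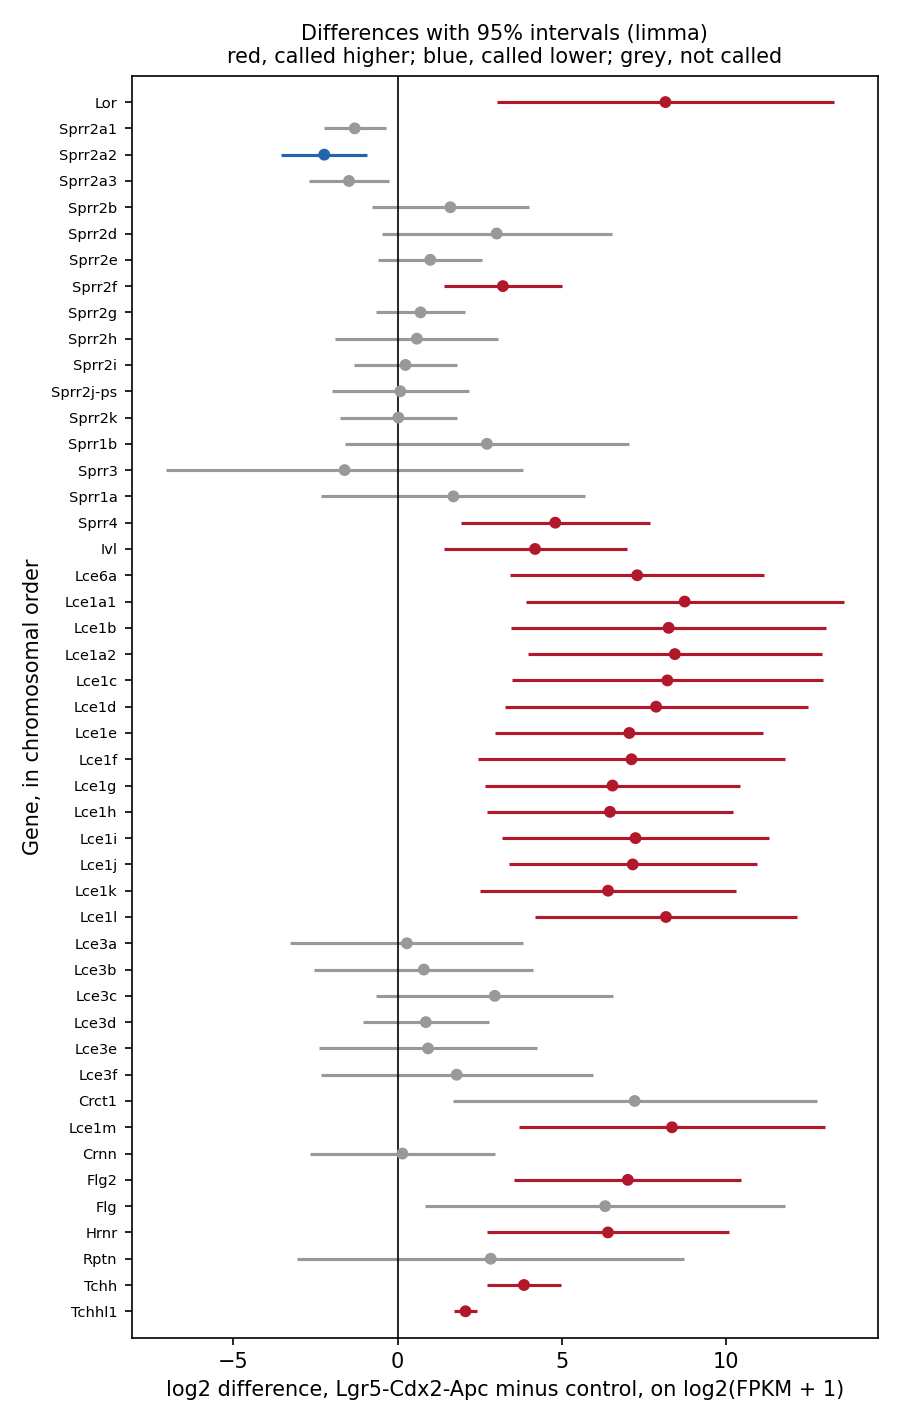
Log2 difference between Lgr5-Cdx2-Apc and control on the log2(FPKM + 1) scale for each of the 47 genes in chromosomal order, with 95% intervals from limma. Red genes were called higher, blue lower and grey were not called; all Lce1 genes are red, all Lce3 genes grey and Sprr2a2 blue.

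The Sprr genes did not move as 1 family. Sprr1a, a proline-rich precursor that also appears in stressed and wounded epithelium, was 57.9 and 98.6 FPKM in Lgr5-Cdx2-Apc against 223, 5.21 and 8.43 in control. The groups overlapped and the difference was 1.70 ± 1.81 (SE; limma adjusted p = 0.519). Sprr1b was 1.68 and 46.6 FPKM against 3.80, 0.0461 and 0. Sprr3, a precursor of oral and oesophageal lining, was listed at 0 and 4.65 FPKM against 73.0, 1.93 and 0.776, with a difference of -1.61 ± 2.45 (SE; limma adjusted p = 0.658). Sprr4, an uncommon member of the family, was 19.4 and 37.1 FPKM and listed at 0 in all controls. It rose by 4.80 ± 1.30 (SE; limma adjusted p = 0.0308).

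Of the 9 Sprr2 genes other than Sprr2a1, Sprr2a2 and Sprr2a3, 1 was called. Sprr2f was 9.36 and 7.23 FPKM in Lgr5-Cdx2-Apc and listed at 0 in all controls, a rise of 3.21 ± 0.81 (SE; limma adjusted p = 0.0249). Sprr2d, the most abundant of the 9, was 9.24 and 37.1 FPKM against 8.37, 0.325 and 0.169, and its difference of 3.02 ± 1.58 did not pass (SE; limma adjusted p = 0.190). The other 7 had differences from 0.02 to 1.61 and reached at most 7.45 FPKM in these libraries.

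The Sprr2a genes ran the other way. Sprr2a3 was 126 and 143 FPKM in Lgr5-Cdx2-Apc against 306, 376 and 459 in control, and both libraries lay below all controls (log2 difference -1.48 ± 0.54, SE; limma adjusted p = 0.0778). Sprr2a2 was 6.01 and 1.40 FPKM against 18.3, 14.3 and 23.4, and it fell by 2.23 ± 0.59 (SE; limma adjusted p = 0.0286). Sprr2a1 was 2.60 and 1.63 FPKM against 6.76, 4.75 and 8.86 and did not pass, at -1.31 ± 0.43 (SE; limma adjusted p = 0.0566). Against Cdx2-Apc, where Sprr2a3 was 322, 448 and 522 FPKM, Sprr2a2 and Sprr2a1 were called lower by limma, at -2.65 ± 0.59 (SE; adjusted p = 0.0137) and -1.70 ± 0.43 (SE; adjusted p = 0.0208). Reads of these 3 genes are hard to separate, so the summed level is the safer measure. It was 134 and 146 FPKM in Lgr5-Cdx2-Apc, 331 to 491 in control and 348 to 558 in Cdx2-Apc.

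Sprr2a3 was the only member above 100 FPKM in all 12 libraries. The Sprr2a sum did not follow the other envelope genes. It was 593 FPKM in Lgr5-Apc 3 and 182 in Lgr5-Apc 2, both rich in envelope transcripts, and 416 and 145 in Lgr5-Apc 1 and 4, both poor in them. Columnar markers were low in 3 of the 4 libraries with a Sprr2a sum under 200 FPKM: 1157 FPKM in Lgr5-Apc 2 and 1017 and 183 in Lgr5-Cdx2-Apc 1 and 2. The fourth, Lgr5-Apc 4, had a columnar sum of 4658 FPKM. The columnar list had 8 of 9 members called lower against control, as were 8.55% of all genes, and its part in the Sprr2a difference was not tested.

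Of the 7 fused-S100 genes, 4 were called higher with both drivers against control, 2 of which (Tchh and Tchhl1) were tested only because of the libraries with both drivers. Flg2, a filaggrin relative, was 226 and 134 FPKM against 1.47, 0.00590 and 0, and rose by 7.01 ± 1.56 (SE; limma adjusted p = 0.0166). Hrnr, or hornerin, was 41.7 and 219 FPKM against at most 0.456 in control and rose by 6.41 ± 1.66 (SE; limma adjusted p = 0.0271). Filaggrin, Flg, which packs keratin filaments and is broken down into the moisturising factors of skin, was uneven. Its most abundant line was 87.0 and 714 FPKM against 18.5, 0.346 and 0.177, and its difference of 6.32 ± 2.47 did not pass (SE; limma adjusted p = 0.0931). The other 3 Flg lines were less abundant and were also higher in replicate 2 than in replicate 1, at 52.4 and 240, 14.9 and 58.1, and 7.85 and 35.4 FPKM in Lgr5-Cdx2-Apc. Rptn, or repetin, was 4.83 and 129 FPKM against 28.0, 0.541 and 0.281 and overlapped. Crnn, or cornulin, of oesophageal lining, was 1.82 and 1.78 FPKM against 10.1, 0.258 and 0.168, and overlapped as well.

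Trichohyalin and its relative were nearly absent outside Lgr5-Cdx2-Apc. Tchh encodes trichohyalin, the hardening protein of the inner root sheath of the hair. It was 37.9 and 8.68 FPKM in Lgr5-Cdx2-Apc and at most 1.10 in the other 10 libraries. Tchhl1, trichohyalin-like 1, was 3.63 and 2.80 FPKM in Lgr5-Cdx2-Apc, at most 0.0432 in Lgr5-Apc and listed at 0 in control and Cdx2-Apc. Tchh rose by 3.85 ± 0.51 against control and by 3.73 ± 0.48 against Lgr5-Apc (SE). It passed the filter only with the Lgr5-Cdx2-Apc libraries counted, so its p-values come from the fit with no filter on low values. There the limma adjusted p for Tchh was 0.00226 and 0.00202. Tchhl1 reached 1 FPKM in no library outside Lgr5-Cdx2-Apc, so its log2 differences of 2.07 and 2.04 in the same comparisons are given without a p-value. Hair sheath and shaft keratins (10 of 11 measured) moved with them. They summed to 183 and 38.6 FPKM in Lgr5-Cdx2-Apc and to 0 to 4.13 elsewhere. Some lay near the floor in Lgr5-Cdx2-Apc 2, such as Krt31 at 0.623 FPKM against 0.358 in Lgr5-Apc 3. The 8 hair keratins that passed the filter did so only through the Lgr5-Cdx2-Apc libraries, so no count of calls is given. The part of hair follicles in the Tchh result was not tested.

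Tchh and Tchhl1 were the only members called when rectum with both drivers was compared with the Lgr5 driver alone, 2 of 47 against 5.22% of all genes called higher and 3.77% lower. Both had entered the test only through the Lgr5-Cdx2-Apc libraries. The Lce1 genes had log2 differences from 3.27 to 5.61 in this comparison with 0 of 14 called. At an unadjusted p under 0.05 were 7 of the 14, and 29.4% of all genes. In 9 members both Lgr5-Cdx2-Apc libraries lay above all Lgr5-Apc libraries, as did 18.1% of all genes, and in 0 both lay below (14.9% of all). The 9 were Tchh, Tchhl1, Flg2 and 6 Lce1 genes. Without Lgr5-Apc replicate 2 the count of members rose from 2 to 21, with 19 higher and 2 lower. Without Lgr5-Apc replicate 4 it was 6, with 2 higher and 4 lower. Without Lgr5-Cdx2-Apc replicate 1 or 2 it was 1.

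Lgr5-Apc held a pair of libraries rich in envelope transcripts and a pair poor in them. Lor was 11.1, 867, 484 and 0 FPKM in replicates 1 to 4. Lce1a1 was 2.07, 507, 148 and 0 FPKM, Crct1 36.8, 1229, 549 and 0.559, and Sprr1a 139, 767, 768 and 29.2. Against control, 0 of 47 members passed by limma (0% of all genes were called higher and 0.0115% lower). At an unadjusted p under 0.05 were 12 of 47, and 10.8% of all genes. Lce3b, Lce3d, Lce3e, Lce3f and Sprr2k, among the 12, had passed the filter only with the Lgr5-Apc libraries counted. The count is therefore no support for a difference. The log2 difference was 4.55 ± 1.93 for Lor and 3.24 ± 1.52 for Sprr1a (SE; limma adjusted p = 0.437 and 0.467).

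All 6 Lce3 genes were at an unadjusted p under 0.05 in Lgr5-Apc against control, and none passed after adjustment. Lce3b, Lce3d, Lce3e and Lce3f had passed the filter only with the Lgr5-Apc libraries counted. Neither their unadjusted p-values nor the separation of Lce3f given next is therefore support for a difference. Lce3f was 5.83, 216, 140 and 0.798 FPKM in Lgr5-Apc 1, 2, 3 and 4, each above the 3 controls, and it was the only member without overlap in this comparison (3.96% of all genes lay higher without overlap). The log2 difference of Lce3f was 4.33 ± 1.56 (SE) and did not pass. Lce3c was 4.72, 105, 74.5 and 0 FPKM and listed at 0 in control, and Lce3a was 7.53, 72.7, 81.9 and 0 FPKM. Sprr3 was 64.1, 556, 454 and 0.388 FPKM, and Rptn 15.9, 895, 590 and 0.174 FPKM.

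The 4 libraries rich in envelope genes therefore differed in which envelope genes they held. The Lce1 sum was 3794 and 1110 FPKM in Lgr5-Apc 2 and 3 and 3944 and 4150 in Lgr5-Cdx2-Apc 1 and 2, so that Lgr5-Apc 2 was close to the latter. The Lce3 sum was 511 and 445 FPKM in the former pair but 3.87 and 41.3 in the latter. Expressed within a library, Lce3 was 13.5% and 40.1% of Lce1 in Lgr5-Apc 2 and 3 and 0.0981% and 0.995% in Lgr5-Cdx2-Apc 1 and 2. Sprr3 was 64.2% and 93.9% of Lor in Lgr5-Apc 2 and 3 and 0% and 0.852% in Lgr5-Cdx2-Apc. Rptn was 103% and 122% of Lor in the first pair, and 0.784% and 23.6% in the second. These shares compare single libraries and carry no test; over whole groups the difference between Lgr5-Cdx2-Apc and Lgr5-Apc was -4.86 ± 2.33 for Sprr3 and -2.53 ± 1.77 for Lce3f (SE), and neither passed (limma adjusted p = 0.192 and 0.359).

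**Figure D4:**
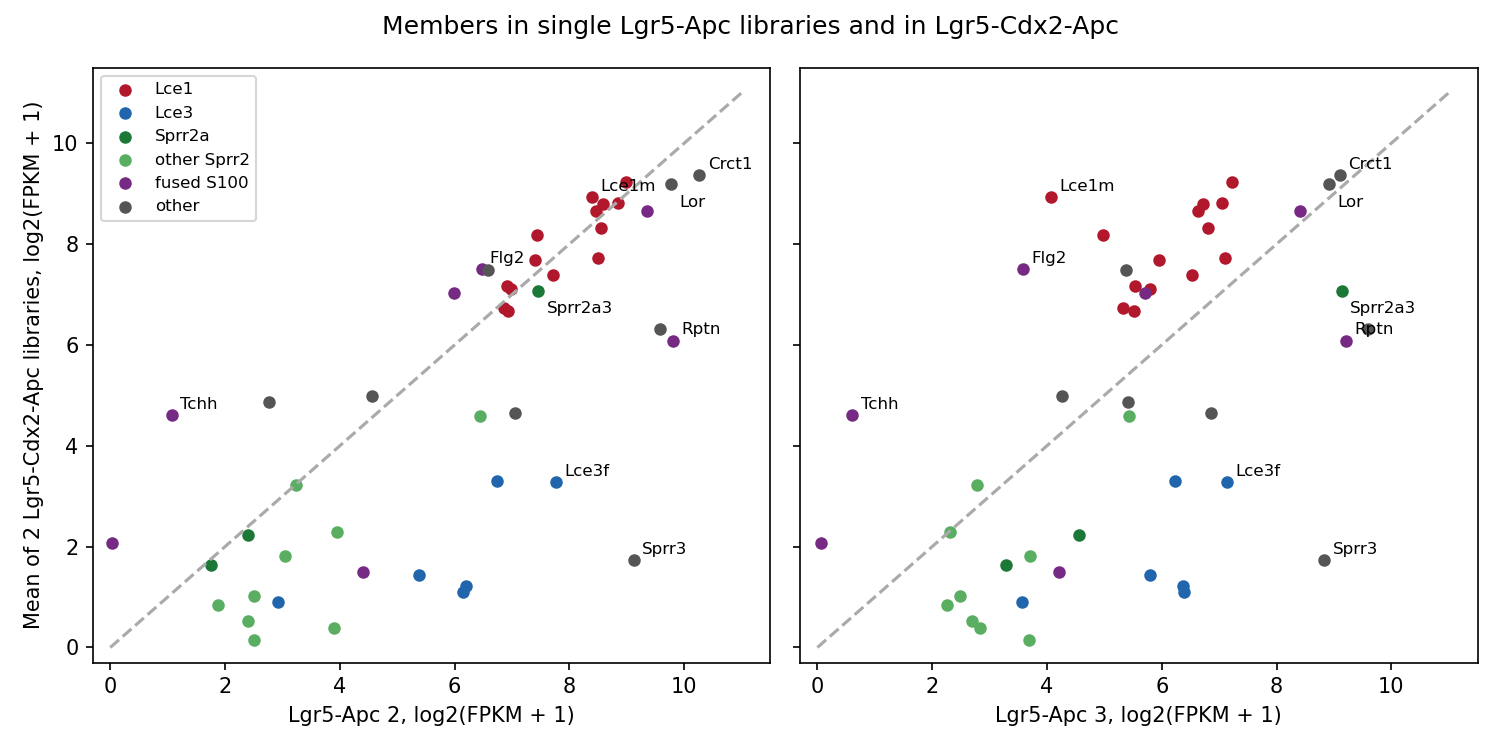
Each point is a member; the x axis gives its log2(FPKM + 1) in Lgr5-Apc 2 (left) or Lgr5-Apc 3 (right) and the y axis that of the mean of the 2 Lgr5-Cdx2-Apc libraries, with equality dashed. Lce1 genes lie near the line on the left, whereas Lce3 genes, Sprr3 and Rptn lie below it in both panels and Tchh above it.

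Within the Lce1 cluster, 2 genes differed from the rest between the Lgr5-Apc libraries. The ratio of Lgr5-Apc 2 to Lgr5-Apc 3 had a median of 3.15 over the 14 genes and a highest value of 21.1, that of Lce1m (334 and 15.8 FPKM). Lce1l was next, at 173 and 30.5 FPKM. These are the Lce1 genes on either side of the Lce3 cluster: Lce1l lies at 92849949 before Lce3a, and Lce1m at 93017810 after Lce3f and Crct1. Flg2, beyond Lce1m, was 87.5 and 10.96 FPKM in the same pair. All 3 were picked after their values were seen. In the whole groups they were not called between Lgr5-Cdx2-Apc and Lgr5-Apc, with log2 differences of 4.97 ± 1.71 for Lce1l, 5.61 ± 2.00 for Lce1m and 4.84 ± 1.48 for Flg2 (SE; limma adjusted p = 0.0885, 0.0969 and 0.0655).

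Keratins of the suprabasal layers are given beside these shares. Krt2, a keratin of the upper epidermis, was 641 and 2193 FPKM in Lgr5-Cdx2-Apc, 62.7 and 0.870 in Lgr5-Apc 2 and 3 and at most 0.767 elsewhere. The rest of the epidermal list did not all follow Krt2. In Lgr5-Apc 2 and 3, Krt1 was 4066 and 2901 FPKM, Krt10 5939 and 3547, Krt80 89.0 and 54.1, and Krt77 267 and 1.25. In Lgr5-Cdx2-Apc, Krt1 was 1350 and 5089 FPKM, Krt10 2734 and 6923, Krt80 131 and 85.1, and Krt77 746 and 48.6. The mucosal keratins Krt4, Krt13 and Krt78 (3 of 3 measured) summed to 12574 and 6767 FPKM in Lgr5-Apc 2 and 3. In Lgr5-Cdx2-Apc they summed to 29.6 and 660, below the 1721 of control replicate 1. Not all were low there: Krt78 was 26.9 and 47.7 FPKM in Lgr5-Cdx2-Apc against 5.17, 0.164 and 0.141 in control. It was 152 and 69.2 in Lgr5-Apc 2 and 3. Krt4 was 1.44 and 494 FPKM in Lgr5-Cdx2-Apc, and Krt13 1.28 and 118. Control replicate 1 was itself richer in mucosal than epidermal keratins, at 1721 and 669 FPKM. Its Lce3 genes, Sprr3 and Rptn summed to 106 FPKM while its Lce1 genes summed to 14.8. Most of the 106 was Sprr3 at 73.0 and Rptn at 28.0. The Lce3 genes alone summed to 4.57, below the Lce1 sum. In Cdx2-Apc 3 the sum of Lce3, Sprr3 and Rptn was 13.9 FPKM and that of Lce1 was 23.8.

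**Figure D5:**
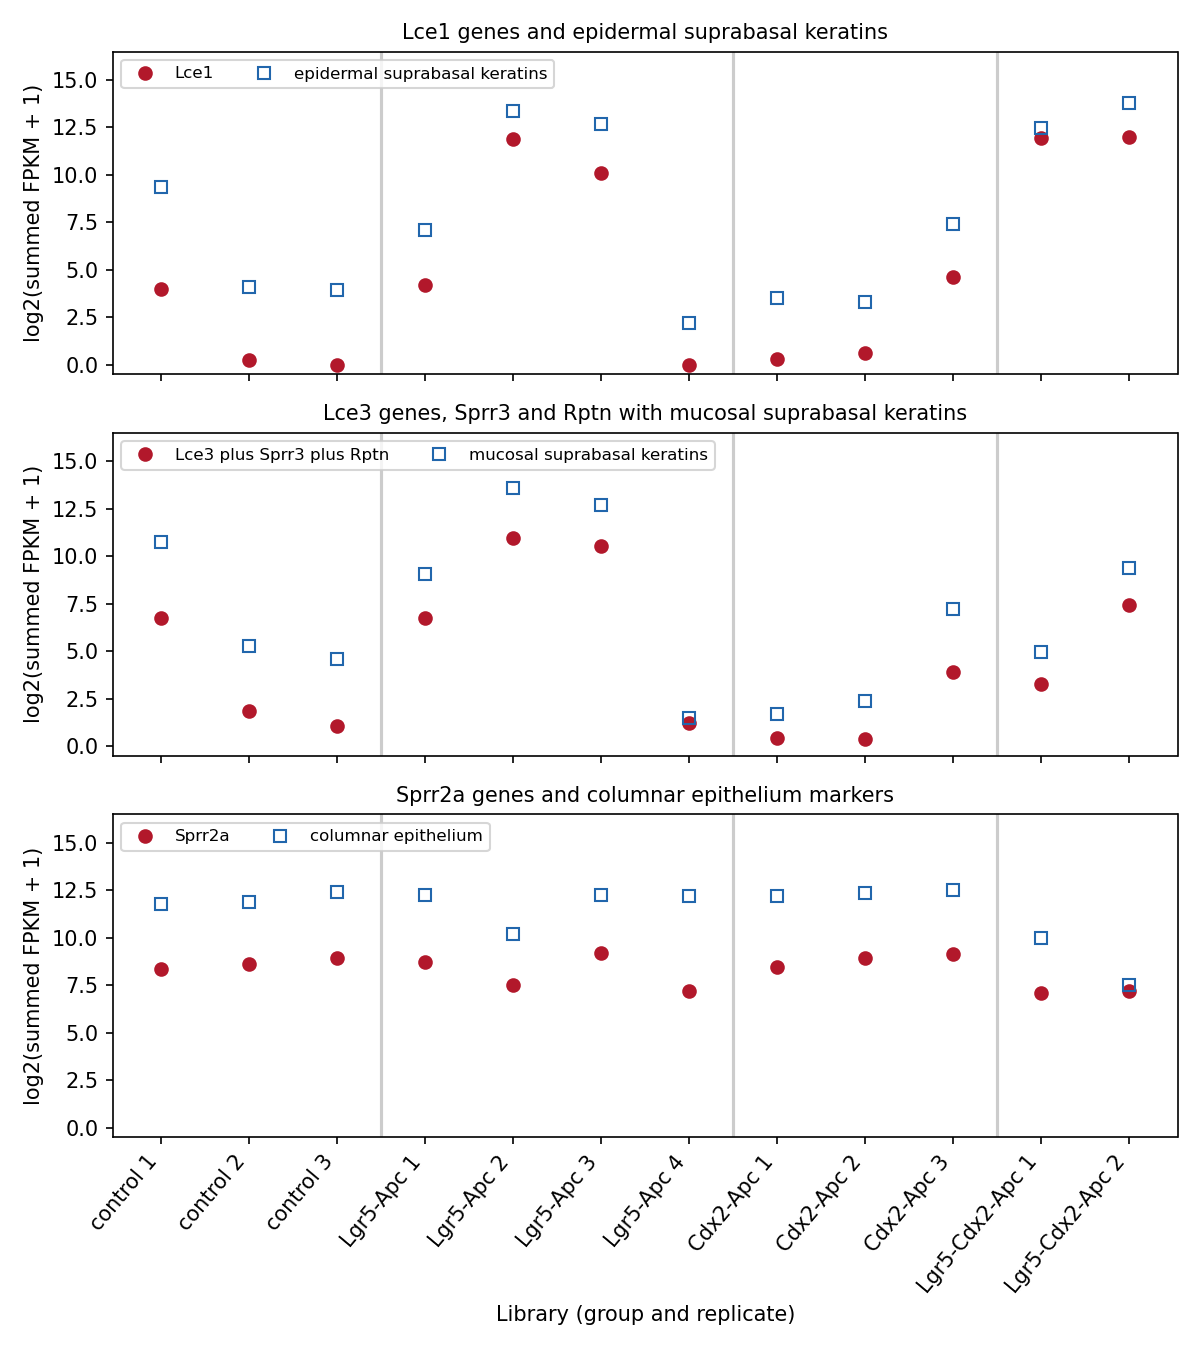
Log2(summed FPKM + 1) by library for 3 sets of envelope genes (red circles) and a marker list each (blue squares). Lce1 and epidermal keratins are high in Lgr5-Apc 2 and 3 and in both Lgr5-Cdx2-Apc libraries, Lce3, Sprr3 and Rptn with mucosal keratins peak in Lgr5-Apc 2 and 3, and Sprr2a is present throughout, as are the columnar markers.

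Rectum with the Cdx2 driver alone held the 2 libraries with the lowest sums outside Sprr2a, 2.31 and 4.91 FPKM. Of the 47 members, 0 were called against control (0.0288% of all genes were called higher and 0.0115% lower by limma) and 0 were at an unadjusted p under 0.05 (1.64% of all genes). In 0 members did all Cdx2-Apc libraries lie above or below all controls (5.88% and 2.7% of all genes). Crct1 was 0, 0.662 and 10.04 FPKM in Cdx2-Apc 1, 2 and 3, Lor 0.104, 0.278 and 2.35, and Sprr1a 1.32, 2.85 and 37.3. Replicate 3 was the highest of the group for each. The log2 difference from control ran from -1.75 for Sprr1a to 0.63 for Lce1m. Both groups held a single library with more envelope transcripts, control replicate 1 and Cdx2-Apc replicate 3.

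Rectum with both drivers had 24 members higher and 2 lower than Cdx2-Apc, where 12.1% and 11.7% of all genes were called. At an unadjusted p under 0.05 were 29 of the 47, and 39.3% of all genes. All 14 Lce1 genes were among those higher, with a median log2 difference of 7.48, and so were Lor at 8.43 ± 2.31 and Crct1 at 7.97 ± 2.50 (SE; limma adjusted p = 0.0278 and 0.0434). The Lce3 genes again had 0 of 6 called. In 35 members both libraries lay above all Cdx2-Apc libraries (33.4% of all genes), and in the 3 Sprr2a genes both lay below (30.4% of all). The count of 26 was 8, 4 and 13 without Cdx2-Apc replicate 1, 2 and 3, and 2 and 1 without Lgr5-Cdx2-Apc replicate 1 and 2. This comparison and the one with control use the same Lgr5-Cdx2-Apc libraries. Between Lgr5-Apc and Cdx2-Apc, 0 of 47 members passed (0.00576% of all genes were higher and 0.0288% lower). At an unadjusted p under 0.05 were 16 of 47, and 10.4% of all genes. All 6 Lce3 genes were among the 16. Of these, Lce3b, Lce3d, Lce3e and Lce3f had passed the filter only with the Lgr5-Apc libraries counted, so the count is no support for a difference. Lce3f was the 1 member without overlap between these groups (4.29% of all genes lay higher without overlap and 6.76% lower). It had passed the filter only with the Lgr5-Apc libraries counted. Sprr1a had the smallest p there, with a log2 difference of 5.00 ± 1.52 (SE; limma adjusted p = 0.369).

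Genes that assemble and mature the envelope were examined beside it, between Lgr5-Cdx2-Apc and control by limma, where 10.5% of all genes were called higher and 8.55% lower. Of 4 transglutaminases, Tgm5, an epidermal cross-linker, rose by 3.64 ± 0.97 and Tgm2, the widely expressed tissue transglutaminase, fell by 1.15 ± 0.32 (SE). Tgm1, the membrane-bound enzyme of keratinocytes, was 26.1 and 38.9 FPKM against 25.8, 0.725 and 0.572 and did not pass. Of 10 other envelope proteins 2 rose, Kprp by 7.11 ± 1.77 and corneodesmosin Cdsn, which glues corneocytes together, by 6.20 ± 1.74 (SE). Suprabasin, Sbsn, had the third smallest p of these 10, with a difference of 7.40 ± 2.38 that did not pass (SE; limma adjusted p = 0.0528). Of 11 proteases and inhibitors of cornification 3 rose, the kallikreins Klk5 and Klk7 by 5.42 and 6.67 and the filaggrin-processing protease Asprv1 by 7.31. Of 10 barrier lipid genes 5 rose, among them the lipoxygenase Aloxe3 by 4.80, the lipid transporter Abca12 by 4.55 and the fatty acid elongase Elovl4 by 7.26. Of 14 regulators of the granular layer 5 rose, among them the transcription factors Maf by 3.14 and Pou2f3, a POU factor of keratinocytes, by 5.41. Of the 12 simple S100 genes tested, whose positions were not looked up, 0 rose and 3 fell: S100a13 by 1.19, S100a1 by 1.28 and S100a6 by 1.69.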

How the data were processed

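RNA was measured by RNA-seq in 12 libraries of mouse rectum. Per the labels' protocols, RNA was extracted with RNeasy Plus and DNase and made into NEBNext Ultra II Directional libraries. The submitters' processing notes name STAR, Cufflinks, Cuffdiff and mm10, without versions; the gene annotation is not given in the sources used here. The authors deposited FPKM; the header names no unit, which was taken from the tools and the values. Depth in reads is unknown, whole reads were not recovered from the low values, and no counting interval was computed.

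Of 27831 lines, 25 had numbers for names and were kept unnamed, and 44 other symbols were repeated. Of repeats, only the most abundant line was used, leaving 27785 genes. The 17360 genes that reached 1 FPKM in 2 or more libraries were tested on the log2(FPKM + 1) scale in a model with a term per group (limma 3.58.1, R 4.3.3, moderation with intensity trend, two-sided). Adjusted p-values are Benjamini-Hochberg over all genes tested in a comparison, with calls below 0.05. The model was tested on simulated data. Same-numbered libraries were not paired: 5 of 15 such pairs had deviations correlated above 0.1, as had 14 of 38 differently numbered pairs.

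Positions are from GENCODE M21. Promoters are from RefSeq (GRCm38.p6), matched by symbol. Named were the members listed singly in the rule, Sprr1a, Sprr1b, Sprr3, Sprr4, Lce6a, the 6 Lce1, 3 Lce3 and 4 Sprr2 genes with the highest mean, called members, and up to 3 genes of each other list by smallest p. A gene that this rule names is not reported here. Other pseudocounts, filters, scalings, weights, a replicate block and leaving out each library were tried. The members and lists were chosen with earlier results of these data known.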

Additional observations from a re-analysis of the deposited data

Results flagged for a closer look

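Tchh and Tchhl1 were flagged because the level with both drivers departed from adding up the differences seen with each driver alone. The difference between Lgr5-Cdx2-Apc and Cdx2-Apc minus that between Lgr5-Apc and control was 3.95 ± 0.66 for Tchh and 2.04 ± 0.21 for Tchhl1 on the log2(FPKM + 1) scale (SE). No p-value is given for either gene, because both entered the test only through the Lgr5-Cdx2-Apc libraries, which also carry this difference. The flag rests on the same test and is therefore no support for a departure in either gene. Of all 17360 genes, 274 were called in this test, and of the other 45 members 0 were called, with Sprr2a2 next at -2.02 (adjusted p = 0.182). No member had a single library of the Lgr5-Apc group far from the rest on this scale.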

How the results depend on the processing

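The count of members called between Lgr5-Cdx2-Apc and control was 24, and it was 21 to 30 under other pseudocounts, filters, scalings, weights and models. The 30 came from a fit of the compared groups only, in which Lgr5-Apc does not enter the spread. Short RNA removal with equal totals, which was added after seeing the data, gave 24. Leaving out 1 library gave 1 to 27. Against Cdx2-Apc the count of 26 was 24 to 35, and 1 to 29 with a library left out. Against Lgr5-Apc the count of 2 was 0 with a mean of at least 5 FPKM, a filter that drops both genes, 1 in a fit of the compared groups only, and 12 with library quality weights (5 higher and 7 lower); leaving out 1 library gave 1 to 21. Between Lgr5-Apc and Cdx2-Apc the count of 0 was 1 with library quality weights and 0 with any library left out. For Lgr5-Apc and for Cdx2-Apc against control it was 0 under each alternative run. With a replicate block the counts were 25 against control, 28 against Cdx2-Apc and 2 against Lgr5-Apc, and 0 in the other comparisons; same-numbered libraries share only a number. Among the alternatives against control, Tchh was called with no filter (limma adjusted p = 0.00226). Under the main filter Tchh entered the test only through the Lgr5-Cdx2-Apc libraries. Lor was called in 14 of 24, with adjusted p from 0.00195 to 0.187. Tchhl1 left the test without either Lgr5-Cdx2-Apc library. No log2 difference of the genes followed across these alternatives changed sign. Where 1 library is left in a group, it is assumed to vary like the others. The cause of these changes was not tested. Depth cannot be judged from FPKM, and a value listed at 0 may be a missed estimate.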
